A study of Mus musculus with 18 samples.

Results

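The genes described here are 5 Krüppel-like transcription factors, Klf2, Klf4, Klf6, Klf9 and Klf10, and 5 dual-specificity phosphatases, Dusp1, Dusp4, Dusp6, Dusp10 and Dusp16, in injected mouse retinas. They were found by their symbols in the annotation of the array, which gave probe sets to 9 of the 10 genes. These 9 genes had 19 of the 22626 probe sets tested: 7 for Klf9, 3 for Klf6, 2 each for Klf4 and Dusp10, and 1 each for the other 5 genes. Dusp4 has no probe set in the annotation used and was not analysed here. The 9 genes stand among 12393 with a probe set. Where a gene had several, the probe set of highest mean over the 18 arrays represents it, and the others are given after it.

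Krüppel-like factors carry zinc fingers at their carboxyl end and bind CACCC and GC-rich boxes, where some activate and others repress transcription. Several are early response genes. In rodent retinal ganglion cells Klf4 and Klf9 are known to restrain axon growth, while Klf2 and Klf4 keep vascular endothelium quiescent. The dual-specificity phosphatases of this group remove phosphate from the threonine and the tyrosine that activate a MAP kinase. They are themselves transcribed after stimulation, which makes them part of the feedback on the ERK, JNK and p38 pathways.

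All retinas came from Balb/cJ mice and all had been detached by fluid placed beneath them, so the groups share the detachment, the injection and the saline. INS37217 (denufosol) activates P2Y2, a receptor for extracellular nucleotides, and was given at 10 uM in 1 uL of saline. The groups were INS37217 and, as its control, 1 uL of saline alone, each at 2 h, 24 h and 7 d. Every group had 3 arrays, and RNA of more than 5 retinas was pooled for each, so the spread given below is between pools and not between animals. The sources used here give neither age nor sex. No uninjected retina was analysed here, and a change with time is therefore a change between injected retinas only. By the series' design the 2 h retinas served to find early response genes, and the comparison with saline served to find genes that accompany faster recovery.

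Array medians lay at 6.67 to 6.76 on the log2 scale, and arrays of a group correlated at 0.9591 to 0.9966. The groups follow the sample titles. The source names disagree with them for 8 of the 9 INS37217 arrays, which they describe with saline alone, and for 1 saline array titled 7 d, replicate 2, which they place at 2 h. That array correlated at up to 0.9941 with the other saline arrays of 7 d and at up to 0.979 with those of 2 h, and the calls made for Dusp1, Dusp16, Klf4, Klf6 and Klf10 at 7 d against 2 h, by the probe set that represents each gene, stood without it. The files give no detection calls, so whether a probe set lay above background was not determined.

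Promoters are shown for 5 genes that were lower at 24 h than at 2 h with both injections, because a shared early course raises the question which response elements their starts hold. RefSeq (GRCm38.p6) gives a window for 8 of the 9 genes, from 250 bases before the annotated start to 50 bases after it, and none for Klf10. The 250 bases before the start are printed 5′ to 3′ on the strand of the gene. The windows are chr17:26508473-26508722 (minus strand) for Dusp1, chr6:134792629-134792878 (minus) for Dusp16, chr4:55532476-55532725 (minus) for Klf4, chr19:23140976-23141225 (plus) for Klf9 and chr13:5861239-5861488 (plus) for Klf6. That of Dusp16 lies inside the gene's annotated span. Capitals mark the core of the cyclic AMP response element, TGACG, and TGANTCA on either strand. TGANTCA is a loose form of the AP-1 element, since any middle base was accepted.
Dusp1: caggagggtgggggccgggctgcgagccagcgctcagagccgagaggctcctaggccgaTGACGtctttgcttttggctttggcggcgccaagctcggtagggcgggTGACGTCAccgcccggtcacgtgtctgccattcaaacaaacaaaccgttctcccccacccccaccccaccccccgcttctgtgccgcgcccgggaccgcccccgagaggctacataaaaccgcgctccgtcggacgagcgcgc
Dusp16: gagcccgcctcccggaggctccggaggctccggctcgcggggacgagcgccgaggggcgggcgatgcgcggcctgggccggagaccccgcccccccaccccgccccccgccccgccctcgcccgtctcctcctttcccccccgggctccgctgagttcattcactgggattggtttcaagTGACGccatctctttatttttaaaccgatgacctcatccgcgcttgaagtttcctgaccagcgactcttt
Klf4: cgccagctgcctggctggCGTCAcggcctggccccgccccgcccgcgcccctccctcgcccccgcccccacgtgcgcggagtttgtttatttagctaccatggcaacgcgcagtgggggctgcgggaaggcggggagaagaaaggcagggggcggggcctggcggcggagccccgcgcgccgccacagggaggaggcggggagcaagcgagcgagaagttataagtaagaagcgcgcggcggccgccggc
Klf9: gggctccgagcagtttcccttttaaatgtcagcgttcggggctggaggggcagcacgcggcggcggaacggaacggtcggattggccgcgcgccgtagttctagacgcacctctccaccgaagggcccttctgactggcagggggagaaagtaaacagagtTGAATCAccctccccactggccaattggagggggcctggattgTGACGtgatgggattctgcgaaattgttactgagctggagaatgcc
Klf6: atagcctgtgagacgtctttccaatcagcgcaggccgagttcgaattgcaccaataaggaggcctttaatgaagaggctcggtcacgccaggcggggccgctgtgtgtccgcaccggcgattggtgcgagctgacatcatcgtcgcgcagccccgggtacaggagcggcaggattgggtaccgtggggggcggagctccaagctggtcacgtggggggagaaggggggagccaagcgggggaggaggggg
TGACG or its reverse complement occurred in 5 of the 8 windows, those of Dusp1, Dusp16, Klf4, Klf9 and Klf2, against 20.8% of all 32851 RefSeq windows of the same length. Dusp1 held 3 matches, at -191, -143 and -140 from the start, of which those at -143 and -140 overlap on opposite strands. Dusp16 held 1 at -70, Klf9 1 at -46, Klf4 1 at -232 and Klf2 1 at -241. TGANTCA was found in Klf9 alone, as TGAATCA at -89, against 7.81% of all windows for the same loose pattern. No window of these genes held a CArG box, the serum response element core (1.63% of all). The GC box GGGCGG was in 6 of the 8 windows (35.7% of all) and CACCC in 6 (57.5% of all). In Dusp1 the CACCC match at -146 overlaps both the TGACG match at -143 and the GC box at -150, and in Klf9 the CACCC match at -84 overlaps the TGAATCA match at -89. GC boxes also overlap each other or a CACCC match in Klf4 and Dusp16. These are matches of letters and no measure of binding.

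The main pattern was a decline after 2 h, found in 4 of the 5 Krüppel-like factors and 2 of the 4 phosphatases measured. At 24 h against 2 h, 6 of 9 members were lower in INS37217 retinas, where 3.3% of all probe sets were called lower at the same threshold, an adjusted p under 0.05. In saline retinas 6 of 9 were lower too, against 2.93% of all probe sets. They were Dusp1, Dusp16, Klf4, Klf6, Klf9 and Klf10 with both injections, and none was higher. The median of the 9 members was -0.69 with INS37217 and -0.60 with saline, while the median of all probe sets was -0.04 in both. The ranges of the 3 arrays did not overlap for 6 members with INS37217 (11.4% of all probe sets) and for 8 with saline (11.7%). With the replicate number as a block, the members called were again 6 and 6, while 10.5% of all probe sets were then called lower with INS37217 and 12.9% with saline. The members were chosen with earlier results of these data known, so these counts describe them and are no independent test.

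**Figure D1:**
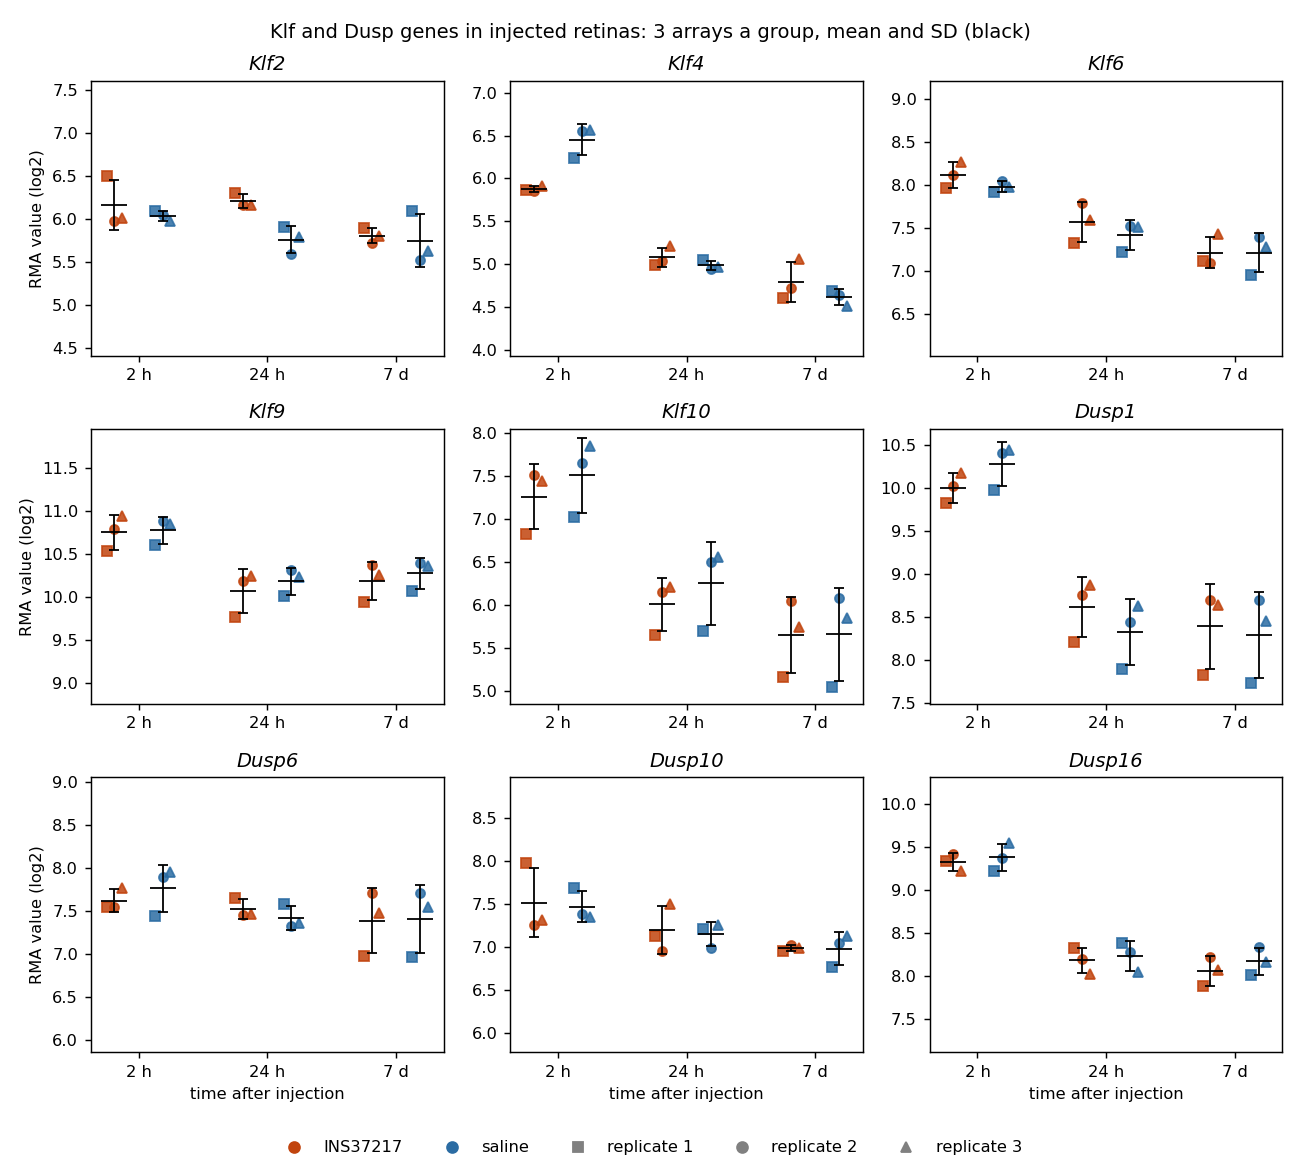
RMA level (log2) of the 9 genes at 2 h, 24 h and 7 d in INS37217 (orange) and saline (blue) retinas, 1 point per array, with symbols for the replicate number and the group mean and SD in black. Dusp1, Dusp16, Klf4, Klf6, Klf9 and Klf10 stand highest at 2 h with both injections, while the groups of Dusp6 overlap at all times.

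Dusp1 (chr17:26505591-26508472, GRCm38.p6) encodes an inducible nuclear phosphatase of p38, JNK and ERK. In INS37217 retinas it measured 9.82, 10.02 and 10.17 at 2 h, then 8.21, 8.75 and 8.87 at 24 h and 7.82, 8.70 and 8.64 at 7 d. The saline arrays read 9.98, 10.41 and 10.44 at 2 h, then 7.89, 8.44 and 8.63 at 24 h and 7.73, 8.69 and 8.45 at 7 d. Every array of 2 h lay above every later array. At 24 h against 2 h Dusp1 fell by 1.39 with INS37217 (SE 0.28, limma adjusted p = 0.0058). With saline it fell by 1.96 (SE 0.28, adjusted p = 3.7e-04), to 0.258 of the level at 2 h. In bulk retina a loss of cells that express a gene and less RNA per cell cannot be told apart, here or for any gene below.

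Dusp16 (chr6:134715468-134807063) encodes a phosphatase of JNK and p38 that can leave the nucleus. It measured 9.33, 9.42 and 9.22 at 2 h, 8.32, 8.19 and 8.02 at 24 h, and 7.88, 8.22 and 8.06 at 7 d with INS37217. Those of saline were 9.22, 9.37 and 9.54 at 2 h, 8.38, 8.27 and 8.04 at 24 h, and 8.01, 8.33 and 8.16 at 7 d. The step fell between 2 h and 24 h, and the later groups overlap. The change at 24 h was -1.15 with INS37217 (SE 0.13, adjusted p = 3.6e-05) and -1.15 with saline (SE 0.13, adjusted p = 4.7e-05), or 0.452 of the level at 2 h in each.

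The other phosphatases moved less. Dusp10 (chr1:184034381-184075636), a phosphatase of JNK and p38, measured 7.98, 7.26 and 7.31 at 2 h, 7.13, 6.95 and 7.50 at 24 h, and 6.95, 7.02 and 6.99 at 7 d with INS37217. The saline arrays gave 7.68, 7.38 and 7.35, then 7.21, 6.99 and 7.25, then 6.77, 7.04 and 7.13. Its change at 24 h did not pass the threshold with either injection (-0.32 each, adjusted p 0.44 with INS37217 and 0.38 with saline). At 7 d the ranges lay below those of 2 h in both, by 0.53 with INS37217 (adjusted p = 0.14, and 0.020 with the replicate block) and by 0.49 with saline (0.17, and 0.027 with the block). Dusp6 (chr10:99263231-99267489), the cytoplasmic phosphatase of ERK, ranged from 6.97 to 7.77 over the 9 INS37217 arrays and from 6.96 to 7.95 over the 9 saline arrays. Its times overlapped throughout, and its changes at 24 h were -0.10 with INS37217 (95% interval -0.54 to 0.34) and -0.34 with saline (-0.78 to 0.10).

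Among the Krüppel-like factors, Klf4 (chr4:55527137-55532475), a factor of growth arrest and of epithelial and endothelial differentiation, had the smallest error. With INS37217 it measured 5.87, 5.85 and 5.91 at 2 h, 4.99, 5.04 and 5.21 at 24 h, and 4.61, 4.72 and 5.06 at 7 d. On saline arrays it stood at 6.24, 6.55 and 6.56 at 2 h, 5.05, 4.95 and 4.97 at 24 h, and 4.69, 4.64 and 4.51 at 7 d. The 2 h arrays stood above all later ones, and those of saline above those of INS37217. Klf4 fell by 0.80 at 24 h with INS37217 (SE 0.12, adjusted p = 5.9e-04) and by 1.46 with saline (SE 0.12, adjusted p = 1.8e-06). Its level at 24 h was thus 0.576 of that at 2 h with INS37217 and 0.363 with saline.

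Klf10 (chr15:38291464-38300711), known as a TGF-beta inducible early gene, measured 6.82, 7.51 and 7.44 at 2 h, 5.65, 6.15 and 6.21 at 24 h, and 5.16, 6.04 and 5.74 at 7 d with INS37217. With saline it measured 7.02, 7.65 and 7.85 at 2 h, 5.69, 6.50 and 6.56 at 24 h, and 5.04, 6.08 and 5.84 at 7 d. Replicate 1 was the lowest array in each of the 6 groups. Klf10 fell by 1.25 at 24 h with INS37217 (SE 0.33, adjusted p = 0.029) and by 1.26 with saline (SE 0.33, adjusted p = 0.027). The call was lost without any of the 5 arrays INS37217 2 h replicates 2 and 3 and INS37217 24 h replicates 1, 2 and 3 (adjusted p 0.059 to 0.12). With saline it was lost without any of the 4 arrays saline 2 h replicates 2 and 3 and saline 24 h replicates 1 and 2 (0.051 to 0.11), whereas the replicate block gave 1.5e-08 with INS37217 and 1.7e-08 with saline.

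Klf6 (chr13:5861489-5870393), an early response gene whose zebrafish counterpart supports optic axon regrowth, measured 7.97, 8.12 and 8.27 at 2 h, 7.33, 7.79 and 7.60 at 24 h, and 7.12, 7.10 and 7.43 at 7 d with INS37217. In saline retinas the values were 7.92, 8.05 and 7.98 at 2 h, 7.22, 7.53 and 7.52 at 24 h, and 6.96, 7.40 and 7.28 at 7 d. The ranges of 2 h and 24 h did not overlap with either injection. Klf6 fell by 0.55 with INS37217 (SE 0.15, adjusted p = 0.038) and by 0.56 with saline (SE 0.15, adjusted p = 0.031), which is close to the threshold. With saline the call was lost without any 1 of the 6 arrays compared (adjusted p 0.060 to 0.11). With INS37217 it was lost without 2 h replicate 2 or 3, 24 h replicate 1 or 3, saline 2 h replicate 2 or 3, or saline 7 d replicate 3 (0.052 to 0.17).

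Klf9 (chr19:23141226-23168129), which is induced by glucocorticoids and thyroid hormone, measured 10.53, 10.79 and 10.94 at 2 h, 9.77, 10.19 and 10.24 at 24 h, and 9.94, 10.37 and 10.26 at 7 d with INS37217. With saline it measured 10.60, 10.89 and 10.85 at 2 h, 10.01, 10.31 and 10.23 at 24 h, and 10.07, 10.40 and 10.36 at 7 d. Here 24 h gave the lowest group mean with both injections. Klf9 fell by 0.69 at 24 h with INS37217 (SE 0.16, adjusted p = 0.016) and by 0.60 with saline (SE 0.16, adjusted p = 0.034). The call was lost with INS37217 without 2 h replicate 2 or 3 or 24 h replicate 1 (0.057 to 0.088), and with saline without 2 h replicate 2 or 3 or any 24 h replicate (0.060 to 0.13).

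Klf2 (chr8:72319062-72321654), a flow-responsive factor of endothelium that also holds T cells in quiescence, did not pass at 24 h against 2 h. It measured 6.50, 5.98 and 6.01 at 2 h, 6.31, 6.17 and 6.17 at 24 h, and 5.90, 5.72 and 5.81 at 7 d with INS37217. The saline values were 6.09, 6.05 and 5.98, then 5.91, 5.59 and 5.79, then 6.10, 5.52 and 5.63. The change at 24 h was 0.05 with INS37217 (adjusted p = 0.92), with overlapping ranges, and -0.28 with saline (adjusted p = 0.37), where the ranges did not overlap. The calls for Dusp1, Dusp16 and Klf4 at 24 h stood without each of the 18 arrays in turn.

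At 7 d the level of the members that had fallen was still low. Against 2 h, 5 of 9 members were lower with INS37217 (2.39% of all probe sets) and 5 with saline (2.74%), namely Dusp1, Dusp16, Klf4, Klf6 and Klf10 with both. Dusp1 fell by 1.62 with INS37217 (adjusted p = 0.0022) and by 1.99 with saline (4.5e-04). Klf4 fell by 1.08 with INS37217 (3.9e-05) and by 1.84 with saline (1.6e-07). Klf10, the TGF-beta inducible member, had the changes -1.61 with INS37217 (0.0069) and -1.85 with saline (0.0026), and Dusp16 those of -1.27 (1.6e-05) and -1.21 (3.4e-05). Klf6 was 0.90 lower with INS37217 (0.0014) and 0.77 lower with saline (0.0056). All of these calls stood without each of the 18 arrays in turn. Klf9 did not pass (-0.56 with INS37217, adjusted p = 0.061, and -0.50 with saline, 0.093), but passed with the replicate block (7.6e-05 with INS37217 and 2.2e-04 with saline). With that block 8 members were lower with INS37217, against 8.68% of all probe sets, and 7 with saline, against 9.59%. The members added were Klf9 and Dusp10 with both injections and Klf2 with INS37217 (-0.35, adjusted p = 0.30, and 0.024 with the block).

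Between 24 h and 7 d no member passed, with INS37217 (2.21% of all probe sets called in either direction) or with saline (1.31%). At an unadjusted p under 0.05 there were 3 members with INS37217 (8.15% of all probe sets) and 1 with saline (8.33%). With the replicate block 3 members were lower with INS37217, namely Klf2 (-0.41, adjusted p = 0.018), Klf6 (-0.36, 0.037) and Klf10 (-0.36, 0.043), against 4.07% of all probe sets. With saline the block gave Klf4 (-0.38, 0.040) and Klf10 (-0.60, 9.5e-04), against 4.65%. Klf9 was the member with a positive difference with both injections, 0.12 with INS37217 and 0.09 with saline, neither of them past the threshold.

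**Figure D2:**
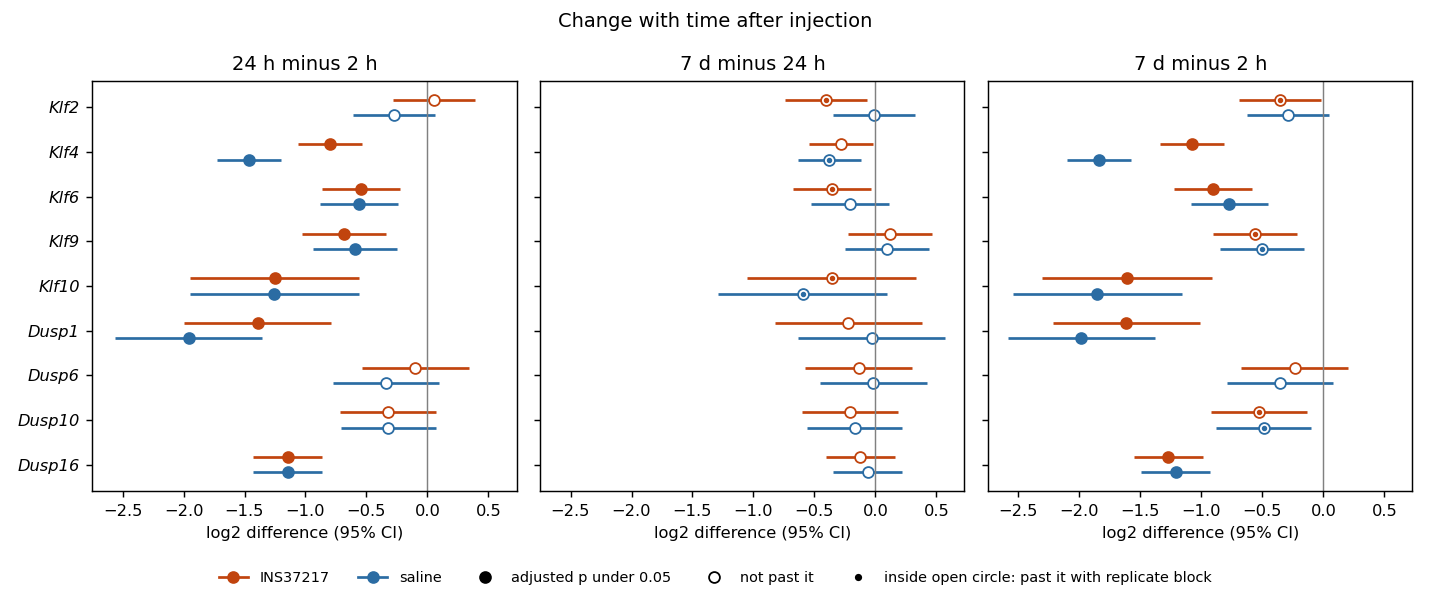
Log2 difference between times (95% interval) of the 9 genes in INS37217 (orange) and saline (blue) retinas, for 24 h minus 2 h, 7 d minus 24 h and 7 d minus 2 h, with filled circles past an adjusted p of 0.05. The filled circles, 6 genes for each injection at 24 h and 5 at 7 d, all lie left of 0, and the middle panel has none.

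The further probe sets of Klf4, Klf6, Klf9 and Dusp10 did not all show these changes to the same extent. By the choice of the representing probe set they had the lower means, for Klf4 4.77 against 5.30. The other Klf4 probe set, 1417395_at, was also lower at 24 h, by 0.55 with INS37217 (adjusted p = 0.0083) and by 0.73 with saline (9.2e-04). For Klf6, 1433508_at measured 6.92, 6.75 and 6.82 at 2 h, 6.63, 6.25 and 6.58 at 24 h, and 5.77, 5.61 and 5.67 at 7 d with INS37217. With saline it measured 7.30, 7.11 and 7.15 at 2 h, 6.51, 5.82 and 6.19 at 24 h, and 5.62, 5.15 and 5.17 at 7 d. This probe set went on falling after 24 h: at 7 d it was 0.80 below 24 h with INS37217 and 0.86 below it with saline (adjusted p = 0.014 each). The third Klf6 probe set, 1418280_at, was lower at 7 d than at 2 h by 0.94 with INS37217 (0.0013) and by 1.08 with saline (5.1e-04). At 24 h neither further Klf6 probe set passed with INS37217 (-0.34, 0.32, and -0.44, 0.13), while both passed with saline (-1.01, 0.0011, and -0.56, 0.039).

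The 7 Klf9 probe sets differed most, and they differed in level too. The representing probe set had a mean of 10.4 over the 18 arrays. The mean was 5.58 for 1436763_a_at, 4.82 for 1452723_at and 4.67 for 1422264_s_at. The part of signal level or of the sequence measured in the differences between probe sets was not tested. At 24 h against 2 h, 1428289_at passed with both injections, by -0.81 with INS37217 (adjusted p = 0.027) and by -0.76 with saline (0.036). 1436763_a_at and 1422264_s_at passed with saline (-1.11, 0.029, and -0.73, 0.0019) but not with INS37217 (-0.75, 0.18, and -0.32, 0.20). 1436952_at and 1452723_at passed with neither, with differences of -0.29 and -0.11 with INS37217 and -0.12 and -0.11 with saline. In 1456341_a_at the replicate 1 arrays lay at 7.57 to 9.03 and all others at 9.52 to 10.71, and its difference of -0.79 with INS37217 had an adjusted p of 0.76 (7.4e-04 with the block). With saline it was -0.65 (0.73, and 0.0034 with the block). The other Dusp10 probe set, 1417163_at, passed in no comparison of times.

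**Figure D3:**
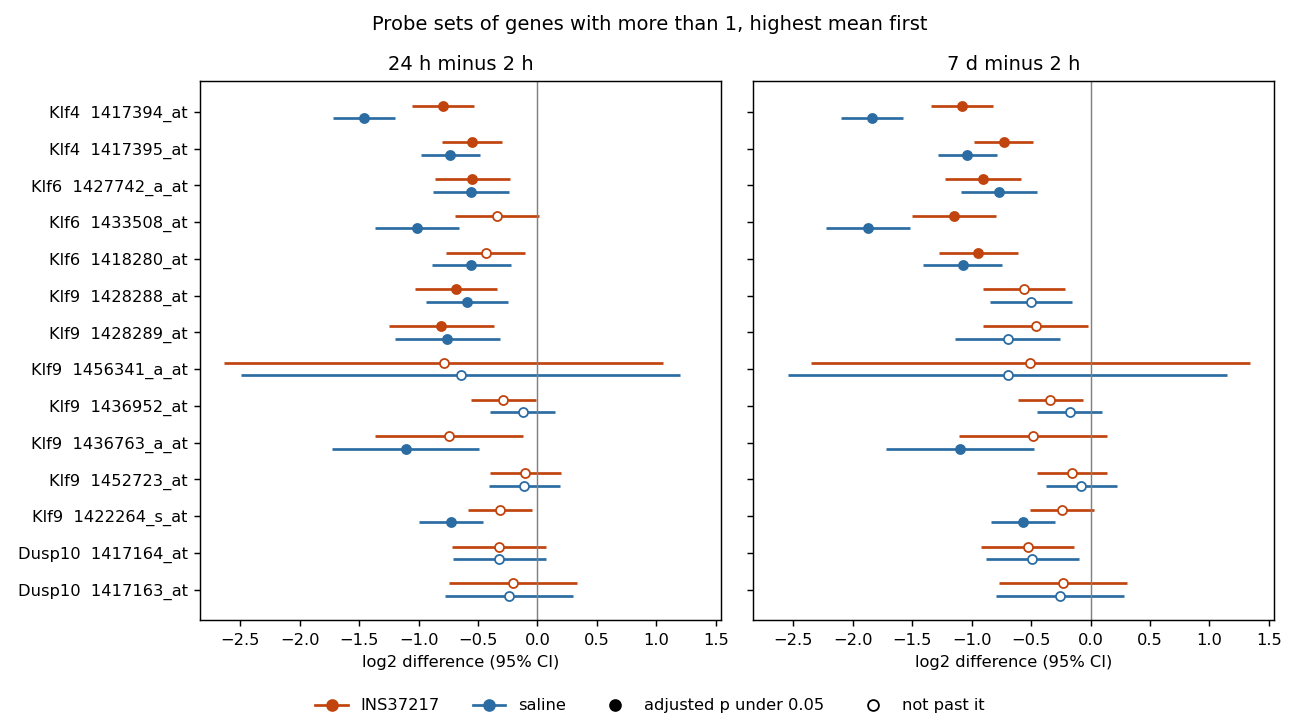
Log2 difference (95% interval) of each probe set of the 4 genes with more than 1, at 24 h minus 2 h and at 7 d minus 2 h, in INS37217 (orange) and saline (blue) retinas, with the probe set of highest mean first within each gene and filled circles past an adjusted p of 0.05. All differences at 24 h are below 0, and the Klf9 probe set 1456341_a_at has the widest intervals.

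RNA quality and cell type markers moved between the same times. The excess of the 3′ over the 5′ actin probe set, which grows as RNA is degraded, was 0.747 ± 0.042 at 2 h, 0.623 ± 0.023 at 24 h and 0.603 ± 0.127 at 7 d with INS37217 (SD, n = 3 each). With saline it was 1.04 ± 0.09 at 2 h, 0.610 ± 0.085 at 24 h and 0.650 ± 0.050 at 7 d. The excess was highest at 2 h with both injections. At 24 h against 2 h, markers of cones were lower for 5 of 7 genes with INS37217 and for 3 of 7 with saline, where 1 was higher, and those of rods for 5 of 8 and 3 of 8. Markers of microglia and macrophages were higher for 5 of 11 genes with INS37217 and for 4 of 11 with saline. Lens genes were higher for 0 of 8 with INS37217 and for 7 of 8 with saline. Mueller glia genes were lower for 4 of 9 and higher for 1 with INS37217, and lower for 3 and higher for 1 with saline. Pigment epithelium genes were higher for 3 of 10 and lower for 1 with INS37217, and none passed with saline. In the lists of bipolar, amacrine and horizontal, and ganglion cells, cornea and conjunctiva, eye muscle, fibroblasts, erythrocytes and neutrophils, at most 2 genes passed with either injection. The mean level of the 12 endothelial markers was 6.15 to 6.30 on the 24 h arrays against 6.04 to 6.20 on the 2 h arrays with INS37217, and 6.14 to 6.26 against 6.11 to 6.27 with saline. Of them 2 were higher with INS37217, and 2 were higher and 1 lower with saline. With the replicate block, cone genes were lower for 6 of 7 with INS37217 and 5 of 7 with saline, rod genes for 6 of 8 and 5 of 8, and all 8 lens genes were higher with saline. Bipolar cell genes were then lower for 3 of 5 (1 higher) and 1 of 5, and ganglion cell genes for 2 of 6 and 3 of 6. Amacrine and horizontal cell genes were lower for 1 of 8 and 3 of 8, and erythrocyte genes for 1 of 3 and 3 of 3. Fibroblast genes were higher for 3 of 8 with each injection, where 1 was lower with INS37217. Of microglia and macrophage genes 7 of 11 and 5 of 11 were higher. At 7 d against 2 h without the block, microglia and macrophage genes were higher for 11 of 11 with INS37217 and 8 of 11 with saline. Fibroblast genes were higher for 7 of 8 and 1 of 8, and pigment epithelium genes for 4 of 10 and 6 of 10. Lens genes were higher for 1 of 8 and 8 of 8, and Mueller glia genes for 3 of 9 and 4 of 9. In each other list at most 2 genes passed. The part of RNA quality or of these cells in the decline of the members was not tested.

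INS37217 against saline gave no member, by its representing probe set, past the threshold at any time. At 2 h the call was made for 0 of 9 members against 0.128% of all probe sets, at 24 h for 0 against 0.119%, and at 7 d for 0 against 0.15%. By limma at an unadjusted p under 0.05 there was 1 member at 2 h (3.53% of all probe sets), 1 at 24 h (3.13%) and 0 at 7 d (2.06%). The member at 2 h was Klf4, whose INS37217 array measured lower than the saline array of the same number in 3 of 3 pairs. The arrays measured 5.87, 5.85 and 5.91 with INS37217 and 6.24, 6.55 and 6.56 with saline, without overlap (3.08% of all probe sets were lower without overlap). The difference of -0.57 had a 95% interval of -0.84 to -0.31 and an adjusted p of 0.12, and 0.0058 with the replicate block, where 0.38% of all probe sets were lower. For the other Klf4 probe set the difference was -0.21 (adjusted p = 1, and 0.45 with the block), also without overlap (5.09 to 5.24 with INS37217, 5.30 to 5.55 with saline). Of the Klf9 probe sets only 1422264_s_at was lower with INS37217 at 2 h without overlap (4.68 to 4.89, against 5.07 to 5.41 with saline). Its means at 24 h were 4.45 with INS37217 and 4.46 with saline. At 2 h the actin excess was lower with INS37217 as well (0.70 to 0.78, against 0.93 to 1.10 with saline, exact permutation p = 0.1, two-sided, the smallest that 3 against 3 arrays allow). The same measure of Gapdh overlapped at 2 h (-0.26 to 0 with INS37217, -0.07 to 0.07 with saline, exact permutation p = 0.3). Lens genes were higher with INS37217 at 2 h for 3 of 8 genes, erythrocyte markers were lower for 1 of 3 genes and pigment epithelium markers for 2 of 10. With the replicate block, on which the Klf4 call rests, the lens genes were 7 of 8 and those of pigment epithelium 4 of 10, while erythrocyte markers were again 1 of 3. The block also gave 1 Mueller glia gene higher and 1 gene each of bipolar cells and fibroblasts lower. The part of any of these in the Klf4 difference was not tested.

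The member at 24 h was Klf2, which measured 6.31, 6.17 and 6.17 with INS37217 and 5.91, 5.59 and 5.79 with saline. All INS37217 arrays stood above all saline arrays, as for 3.43% of all probe sets. The difference was 0.45 (95% interval 0.12 to 0.79), with an adjusted p of 1, and of 0.043 with the replicate block, where 0.614% of all probe sets were higher. None of the 12 endothelial markers differed between INS37217 and saline at 24 h, and their mean level was 6.15 to 6.30 with INS37217 and 6.14 to 6.26 with saline. Of the other marker lists, 1 of 9 neutrophil genes was higher with INS37217 at 24 h and no other gene passed without the block. With it, as for the Klf2 call, Mueller glia genes were lower with INS37217 for 4 of 9, cone genes for 2 of 7 and erythrocyte genes for 1 of 3. Microglia and macrophage genes were then higher for 2 of 11 and neutrophil genes for 2 of 9, and again none of the 12 endothelial markers passed. The part of these cells in the Klf2 difference was not tested. For the 4 phosphatases the differences at 24 h were 0.29 for Dusp1 (95% interval -0.31 to 0.89), 0.10 for Dusp6 (-0.34 to 0.54), 0.04 for Dusp10 (-0.35 to 0.44) and -0.05 for Dusp16 (-0.34 to 0.23). At 7 d the differences of the 9 members ran from -0.11 for Dusp16 to 0.18 for Klf4.

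**Figure D4:**
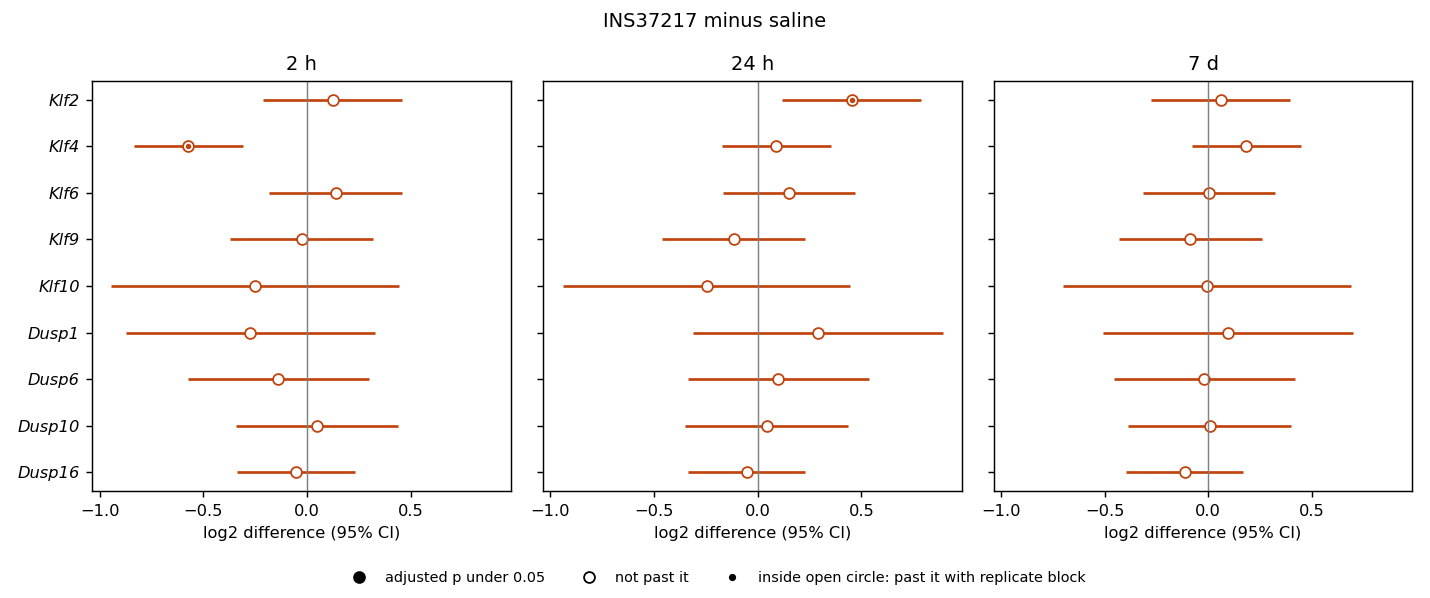
Log2 difference INS37217 minus saline (95% interval) of the 9 genes at 2 h, 24 h and 7 d, where open circles did not pass an adjusted p of 0.05 and a dot marks those that passed with the replicate block. Klf4 at 2 h (-0.57) and Klf2 at 24 h (0.45) carry a dot, and no circle is filled.

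Whether the decline itself differed between injections was tested as the change of the INS37217 difference with time. No member passed from 2 h to 24 h (0.0575% of all probe sets), from 24 h to 7 d (0.0398%) or from 2 h to 7 d (0.0884%). At an unadjusted p under 0.05 the counts were 1 member (2.48% of all probe sets), 0 (1.74%) and 1 (2.6%). That member was Klf4, whose INS37217 minus saline difference was greater at 24 h than at 2 h by 0.66 (95% interval 0.29 to 1.03, adjusted p = 0.51). At 7 d it was greater than at 2 h by 0.76 (0.39 to 1.13, adjusted p = 0.24). With the replicate block these gave 0.040, where 0.442% of all probe sets were called higher, and 0.016, where 0.499% were. The other Klf4 probe set, 1417395_at, gave 0.18 for 24 h (adjusted p = 1, and 0.86 with the block) and 0.31 for 7 d (1, and 0.50 with the block). A change as large was found in Klf6 for 1433508_at, which does not represent the gene. Its INS37217 minus saline difference was -0.36 at 2 h, without overlap, 0.31 at 24 h and 0.37 at 7 d, each with an adjusted p of 1. It was greater at 24 h than at 2 h by 0.67 (95% interval 0.17 to 1.17, adjusted p = 1, and 0.031 with the block) and at 7 d by 0.73 (0.23 to 1.23, adjusted p = 1, and 0.018 with the block). The Klf6 probe set of highest mean did not pass with the block either. The 2 h arrays enter all of these values, so they are not separate from the differences at 2 h. For Dusp1 the same change at 24 h was 0.56 (-0.29 to 1.42, adjusted p = 1), and for Dusp16 it was 0.00 (-0.40 to 0.40).

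Related genes were read from lists of the same pathways. Among 15 other Krüppel-like and SP factors, no gene passed at 24 h against 2 h with either injection, and the smallest p belonged to Sp7 with INS37217 (-0.31, adjusted p = 0.48) and to Sp1, the general GC box factor, with saline (-0.43, 0.34). With the replicate block 0 of the 15 were lower with INS37217 (10.5% of all probe sets) and 2 with saline (12.9%). Of 4 other MAP kinase phosphatases, Dusp2, Dusp7, Dusp8 and Dusp9, none passed either, and Dusp7 was nearest with -0.31 with INS37217 (0.27) and -0.26 with saline (0.34). None of these 4 had a positive difference, and the medians were -0.245 with INS37217 and -0.265 with saline. With the block 1 of the 4 was lower with each injection. Of 14 atypical dual-specificity phosphatases, Styx, a catalytically inactive member that binds ERK, fell with both injections (-0.59 with INS37217, 4.7e-04, and -0.70 with saline, 1.2e-04). Epm2a, which encodes the glycogen phosphatase laforin, rose with saline (0.55, 0.0067). The block gave 0 of the 14 higher and 3 lower with INS37217, and 2 higher and 2 lower with saline.

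Of 20 MAP kinases and upstream kinases, 1 was higher and 2 lower at 24 h with INS37217, namely Map3k1 (0.45, adjusted p = 0.029), Map2k3 (-0.57, 0.0031) and Map3k8 (-0.36, 0.047). With saline 2 were higher and 0 lower, namely Mapk9, which encodes a JNK (0.66, 0.014), and Map3k1 (0.41, 0.046). The counts with the replicate block were 2 higher and 4 lower with INS37217, and 4 higher and 1 lower with saline. Of 10 further feedback genes of the ERK pathway, Phlda1 fell by 1.71 with INS37217 (2.5e-06) and by 1.46 with saline (1.8e-05), and Spry2, a receptor signalling antagonist, fell by 0.93 with saline (0.0028). With the block 4 of the 10 were lower with each injection.

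Of 14 genes induced by glucocorticoids, 6 were lower at 24 h with INS37217 (3.3% of all probe sets) and 5 with saline (2.93%), and none was higher. With the replicate block 7 were lower and 1 higher with each injection. The block called 10.5% of all probe sets lower with INS37217 and 12.9% with saline. The median of the list was -0.38 with INS37217 and -0.31 with saline. Mt2, a metallothionein, fell by 1.22 with INS37217 (adjusted p = 9.2e-06) and by 1.16 with saline (2.1e-05). Per1, a clock gene, fell by 1.21 with INS37217 (0.017) and by 1.42 with saline (0.0054), and Cdkn1a, the p21 cell cycle inhibitor, by 1.20 (2.3e-04) and by 0.93 (0.0025). Nfkbia, the inhibitor of NF-kappa-B, fell by 0.88 with INS37217 (0.0074) and by 1.13 with saline (0.0011). At 7 d against 2 h, 8 of the 14 were lower with INS37217 and 5 with saline. Fkbp5 fell with INS37217 at 24 h (-0.40, 0.026) but did not pass with saline, unlike Mt2, Per1, Cdkn1a and Nfkbia, which passed with both.

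The remaining lists moved in both directions. The TGF-beta list of 12 measured genes joins early targets with ligands and receptors of the pathway. Of these, Tgif1, a corepressor of its SMAD proteins, fell at 24 h by 0.85 with INS37217 (adjusted p = 0.011) and by 0.69 with saline (0.035). Tgfbr2, a receptor and not a target, rose by 0.55 with INS37217 (0.045). With the block 2 were higher and 6 lower with INS37217, and 1 higher and 6 lower with saline. At 24 h against 2 h the block called 5002 of all 22626 probe sets in either direction with INS37217 and 6564 with saline. The block counts of all lists at 24 h are to be read against these numbers, and whether a list exceeds them was not tested. Of 12 known targets of Klf2 and Klf4 in endothelium, Cyp1b1 fell with both injections (-0.75 with INS37217, 0.0041, and -0.50 with saline, 0.046), and Vcam1, an adhesion molecule, rose with saline (0.89, 0.024). Nos3 and Thbd, which these factors are known to induce, did not pass in any comparison of times. Between INS37217 and saline no gene of any of these 8 lists passed at 2 h, 24 h or 7 d without the block. With it, 1 endothelial target of Klf2 and Klf4 and 1 gene of the TGF-beta list were lower at 2 h. At that time 1 atypical phosphatase and 1 gene of the TGF-beta list were higher. At 7 d 3 of 12 genes of the TGF-beta list were higher, and at 24 h no listed gene passed. The block called 398 of all 22626 probe sets at 2 h, 201 at 24 h and 145 at 7 d.

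**Figure D5:**
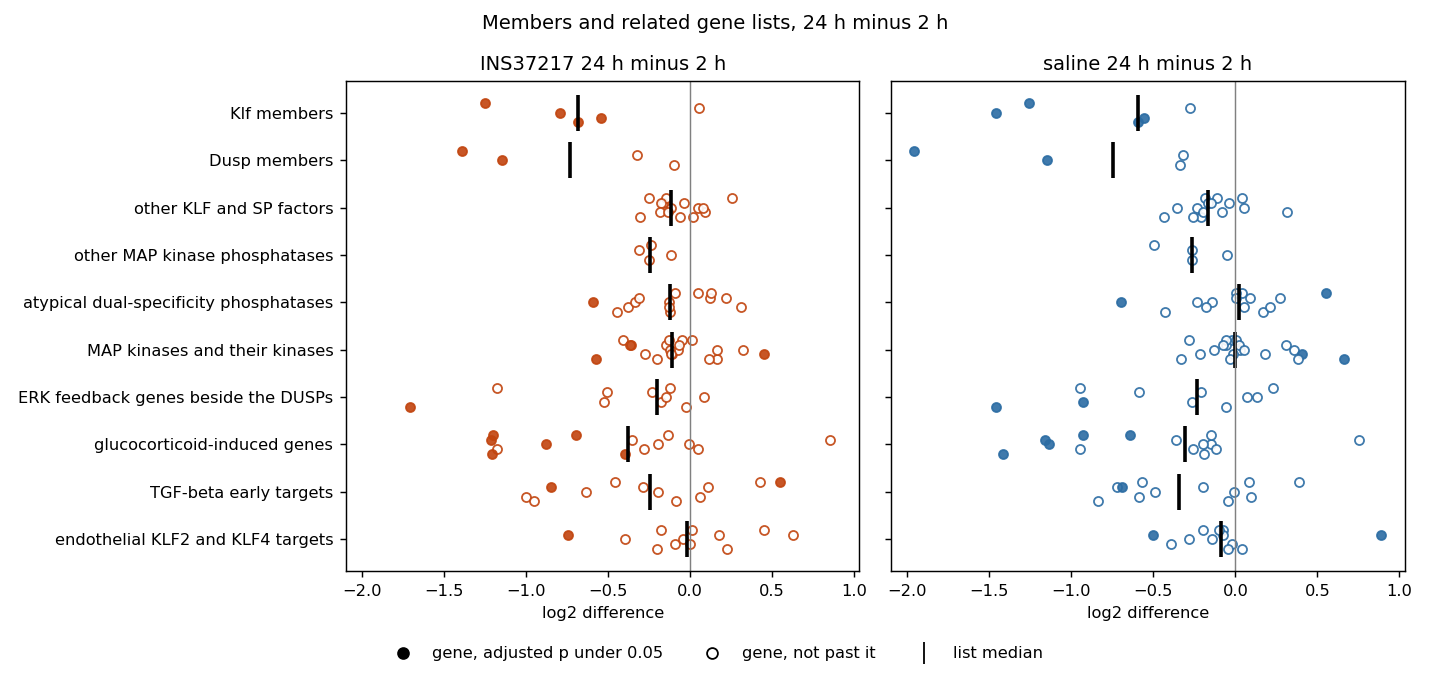
Log2 difference of 24 h minus 2 h for the members and for the genes of 8 related lists, in INS37217 (left, orange) and saline (right, blue) retinas, 1 point per gene, filled past an adjusted p of 0.05, with a bar at each list's median. The medians of the Klf members (-0.69 with INS37217, -0.60 with saline) and Dusp members (-0.74 in each) lie left of those of all other lists. Members and lists were chosen with earlier results of these data known, so this order is a description and no test.

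The members that declined ran together across the arrays. After the mean of each replicate number had been removed, the correlation among Dusp1, Dusp16, Klf4, Klf6, Klf9 and Klf10 over the 18 arrays was 0.803 (Klf6 with Klf9) to 0.962 (Dusp1 with Dusp16). Klf2 correlated with these 6 genes at 0.315 to 0.636, Dusp6 at 0.466 to 0.662 and Dusp10 at 0.662 to 0.785. These values describe 18 arrays that share 6 groups, so they mostly restate the group means. By the same measure the genes most like Dusp1 were Egr1 (0.988), Ppp1r15a (0.987) and Fos (0.979), and those most like Klf4 were Nr4a1 (0.973), Zfp36 (0.972) and Arid5a (0.966). Klf10 was closest to Gigyf1 (0.985), Nr4a1 (0.979) and Egr1 (0.975), and Dusp16 to Ifrd1 (0.978), Crlf3 (0.978) and Noct (0.977). Klf6 was closest to Mt2 (0.960), Mt1 (0.951) and Akap12 (0.948), and Klf9 to Ppef2 (0.985) and Rasgrf1 (0.979). Among members with no call at 24 h the closest gene was Tm4sf1 for Klf2 (0.802), Dlg1 for Dusp6 (0.884) and Trip12 for Dusp10 (0.878).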

How the data were processed

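The deposited values of 18 Affymetrix arrays were used as the authors gave them, in log2 after RMA per the submitters' processing notes, with an RMA version not given in the sources used here. They ran from 2.83 to 14.15. Of 22690 probe sets, 64 Affymetrix controls were left out and 22626 tested. The array's annotation gave 1 gene to 20380 probe sets, several to 691 and none to 1555. Coordinates and promoters came from RefSeq tables of GRCm38.p6, because the array files name no build.

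Groups came from the sample titles. Differences were fitted with lmFit and eBayes of limma 3.58.1 under R 4.3.3 (all 18 arrays, 6 group means, 12 contrasts, 12 residual and 3.3 prior degrees of freedom). Adjusted p values are Benjamini-Hochberg over the 22626 probe sets, with a threshold of 0.05. The same fit with the replicate number as a block had 10 residual and 10.5 prior degrees of freedom. Same-numbered arrays deviated alike: after group means were removed, the 45 same-numbered pairs correlated at 0.426 to 0.921. Replicate 1 correlated with the others at -0.847 to -0.501. Deviations cancel out within a group after that step, so this second range is no separate evidence of a pairing. The sources used here do not say what a number stands for. Precision is limited by the 3 arrays of a group.

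The members, the lists of 8 related pathways and 15 cell types and the rules for naming genes were chosen with earlier results of these data known. From each pathway list up to 4 genes past the threshold with the largest change were named, or otherwise up to 2 with the smallest p; Fkbp5, Nos3 and Thbd were named after their values were seen. For each member up to 3 genes most alike over the arrays were named. The steps were tested on simulated data. Alternatives were another quantile normalization, equal array medians, eBayes with trend and robust, probe sets above the median level, arrays of the compared groups alone, the block, the mean of a gene's probe sets, replicates 2 and 3 alone and each array left out in turn.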

Additional observations from a re-analysis of the deposited data

How the results depend on the processing

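No direction of a called value turned under any alternative run. Of 2772 values of single members under alternatives, 2703 kept their side of the threshold, 38 became weaker and 31 stronger. With the replicate block the count of the 9 members past the threshold was 1 in place of 0 for INS37217 minus saline at 2 h and at 24 h, 8 in place of 5 for INS37217 7 d minus 2 h, 3 in place of 0 for INS37217 7 d minus 24 h and 2 in place of 0 for saline 7 d minus 24 h. It was 1 in place of 0 for the change of the INS37217 difference from 2 h to 24 h and from 2 h to 7 d, Klf4 each time; the block changed no other of these counts by over 1.5 times. With replicates 2 and 3 alone it was 1 for INS37217 minus saline at 2 h, 1 for each of those changes, 1 for saline and 2 for INS37217 at 7 d minus 24 h. The mean of a gene's probe sets gave 1 for 7 d minus 24 h with each injection. Probe sets above the median level, 6.73, gave 3 in place of 5 for 7 d minus 2 h with each injection, since Klf2, Klf4 and Klf10 are left out by that filter. The arrays of the compared groups alone gave 3 in place of 6 for saline 24 h minus 2 h, with fewer degrees of freedom. With each array left out in turn the count was 3 to 6 for 24 h minus 2 h with each injection. The number of all probe sets called, against which the members are read, was 29 for INS37217 minus saline at 2 h (398 with the block, 0 to 398 over the alternatives), 27 at 24 h (201, 2 to 201) and 34 at 7 d (145, 0 to 145). For 24 h minus 2 h it was 1476 with INS37217 (5002, 924 to 5167) and 1714 with saline (6564, 952 to 6564). For 7 d minus 24 h it was 501 with INS37217 (1733, 134 to 1733) and 297 with saline (1668, 78 to 1668), and for 7 d minus 2 h 1110 with INS37217 (4047, 404 to 5281) and 1231 with saline (4946, 315 to 5444). For the change of the INS37217 difference it was 13 at 24 h minus 2 h (242, 4 to 242), 9 at 7 d minus 24 h (62, 1 to 62) and 20 at 7 d minus 2 h (189, 6 to 247). Apart from these, the cause of a change with a setting was not tested. The number of arrays limits what the comparisons of INS37217 with saline can show.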
